A study of Mus musculus with 12 samples.

Results

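The genes described here are the proteasome genes of the mouse, taken as every gene on the array whose symbol starts with Psma, Psmb, Psmc, Psmd or Psme. There were 42 such genes among the 8251 named genes, covered by 53 probe sets, and a gene with more than 1 was represented by its brightest, on mean log2 signal. The rule used symbols and mean level only, so differences between the groups played no part in it. By role the genes comprise 7 alpha and 7 constitutive beta subunits of the core, 3 immunoproteasome subunits, 6 ATPases and 11 other subunits of the cap, 3 cap assembly chaperones and 3 activators. The remaining 2, Psmc3ip and Psme3ip1, match by their letters alone: they encode proteins named for binding Psmc3 and Psme3 and are not subunits. Psme2, the partner of Psme1, is not among the 42 because its probe sets carry 2 gene symbols. After the filter on low signal 39 of the 42 were tested, and Psmc4, Psmd2 and Psmc3ip were too dim.

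The proteasome is the protease that degrades proteins tagged with ubiquitin. Its barrel-shaped core is built of alpha rings, which gate the entry, and beta rings, which carry the cutting sites on Psmb5, Psmb6 and Psmb7. The cap binds tagged proteins, removes the ubiquitin and threads them into the core with a ring of ATPases. After exposure to interferon gamma, cells build particles in which Psmb8 takes the place of Psmb5, Psmb9 that of Psmb6 and Psmb10 that of Psmb7. This immunoproteasome makes peptides that suit presentation on MHC class I, and leukocytes hold it without stimulation. In mouse brown fat the transcription factor Nfe2l1 is known to maintain proteasome levels.

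The promoter windows of some of the genes that differed are shown: 2 immunoproteasome genes that differed between the fat depots, and Psmb6 and Psme1, which differed between the cell fractions. Other genes that differed between fractions are not shown, among them Psmb10, whose window held none of the 3 motifs searched. The sequences are from RefSeq, build GRCm38.p6, each with 250 bases before and 50 bases after the annotated start, written 5′ to 3′ on the strand of the gene. Capitals mark a match to 1 of 3 short motifs, each searched on both strands. Psmb8 lies on the plus strand with its window at chr17:34197945-34198244, and the capitals mark the core letters of a gamma activated sequence, an element of interferon gamma responsive promoters. Psmb9 lies on the minus strand with its window at chr17:34187281-34187580, and held none of the 3 motifs. Psme1 is on the plus strand with its window at chr14:55578244-55578543, and the capitals mark the core of an interferon-stimulated response element, read on the opposite strand. Psmb6 is on the plus strand with its window at chr11:70525107-70525406, and the capitals mark the core of an antioxidant response element, the element bound by Nfe2l1 and Nfe2l2.
Psmb8: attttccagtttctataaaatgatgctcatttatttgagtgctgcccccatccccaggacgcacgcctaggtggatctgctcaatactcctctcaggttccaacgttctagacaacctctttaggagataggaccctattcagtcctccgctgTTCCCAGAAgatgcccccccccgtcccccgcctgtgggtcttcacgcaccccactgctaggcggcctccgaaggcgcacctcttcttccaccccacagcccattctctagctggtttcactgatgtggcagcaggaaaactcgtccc
Psmb9: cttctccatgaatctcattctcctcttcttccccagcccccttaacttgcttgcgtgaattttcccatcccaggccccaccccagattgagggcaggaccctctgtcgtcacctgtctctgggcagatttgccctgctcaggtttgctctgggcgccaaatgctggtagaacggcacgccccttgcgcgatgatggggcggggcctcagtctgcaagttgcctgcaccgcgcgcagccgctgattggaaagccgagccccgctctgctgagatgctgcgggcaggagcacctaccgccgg
Psme1: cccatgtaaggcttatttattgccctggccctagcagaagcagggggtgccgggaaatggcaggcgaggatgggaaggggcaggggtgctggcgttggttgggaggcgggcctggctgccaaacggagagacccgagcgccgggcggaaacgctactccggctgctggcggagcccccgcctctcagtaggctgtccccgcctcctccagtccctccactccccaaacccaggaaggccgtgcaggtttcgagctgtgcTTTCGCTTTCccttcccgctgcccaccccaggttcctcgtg
Psmb6: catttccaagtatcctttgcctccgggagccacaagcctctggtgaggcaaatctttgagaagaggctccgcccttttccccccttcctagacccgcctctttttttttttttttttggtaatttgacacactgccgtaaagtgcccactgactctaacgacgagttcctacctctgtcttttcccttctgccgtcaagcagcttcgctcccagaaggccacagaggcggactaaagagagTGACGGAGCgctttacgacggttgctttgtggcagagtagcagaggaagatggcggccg

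The table held windows for 36 of the 42 genes, 39 windows in all since 3 genes had a second start, and none for Psmb1, Psmb2, Psmb7, Psmc3, Psmd3 and Psmd7. The gamma activated sequence core (TTCNNNGAA) was found in 2 of the 39 windows, those of Psmb8 and Psmd2, which is 5.13% against 8.30% of all 32851 windows. The interferon-stimulated response element core (GAAANNGAAA) was found in 4, those of Psmb3, Psmd4, Psmd9 and Psme1, which is 10.3% against 3.44% of all windows. For the antioxidant response element core (TGACNNNGC) the count was 6, in Psmb5, Psmb6, Psmc6, Psmd12, Psmd9 and Psme4, which is 15.4% against 12.4% of all windows. No match overlapped another, and a match is a description of letters and not a bound site. The Psmb9 window overlaps that of Tap1, the peptide transporter gene on the opposite strand: the annotated starts lie 226 bases apart and the windows share 275 of 300 bases.

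The study compared subcutaneous adipocytes, intraabdominal adipocytes, subcutaneous stromo-vascular cells and intraabdominal stromo-vascular cells, each on 3 arrays, 12 in all. All groups came from untreated C57BL/6 males aged 42 to 49 days, with flank fat as the subcutaneous and epididymal fat as the intraabdominal depot. Fat of 10 mice was pooled by depot and digested with collagenase, which frees floating adipocytes from the stromo-vascular pellet, a mixture of preadipocytes and other cells. Adipocyte RNA was extracted directly and stromo-vascular RNA after 16 h in culture, so that cell fraction and culture cannot be told apart. Nothing says that the 3 samples of a group are separate pools, so p-values measure only the spread between these samples.

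Each array gives 1 MAS5 signal per probe set, an intensity in arbitrary units on a linear scale, and signals are not compared between probe sets. Arrays of 1 group correlated at 0.924 to 0.976. The 10 measured adipocyte markers were all higher in adipocytes in both depots, whereas 7 and 8 of 10 preadipocyte and fibroblast markers were lower there in the subcutaneous and intraabdominal depots. The actin 3′ to 5′ ratio, a measure of RNA integrity, was 2.85 ± 0.43 (SD, n = 3) in the adipocytes of subcutaneous fat and 2.04 ± 0.29 in those of intraabdominal fat. In the stromo-vascular cells it was 1.22 ± 0.02 (subcutaneous) and 1.17 ± 0.05 (intraabdominal). It moved with the fractions, and to a smaller extent with the depots of the adipocytes. A fit with this ratio as a covariate left 1 call among the proteasome genes in the subcutaneous fraction comparison and 8 in the intraabdominal one. In bulk RNA, fewer cells of a type and less RNA per cell cannot be told apart.

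Few proteasome genes passed the test between the depots, and Psmb8 and Psmb9 were called in both fractions. In adipocytes 2 of the 39 genes were higher in the subcutaneous depot, Psmb8 and Psmb9, and 0 were lower. Of all 6436 genes tested 8.30% were called at an adjusted p under 0.05 (limma, Benjamini-Hochberg over all probe sets tested), 3.67% higher and 4.63% lower. In stromo-vascular cells 4 were higher in the subcutaneous depot (Psmb8, Psmb9, Psmd7 and Psme3) and 1 lower (Psmc5), where 13.9% of all genes were called, 6.91% higher and 6.96% lower. The counts of 2 and 5 of 39 lie near these backgrounds. In both fractions 2 of the 39 were higher, 0 lower and 0 called in opposite directions. Among all 6436 genes 48 were higher in both, 83 lower in both and 56 called in opposite directions. The depot differences of the 2 fractions correlated across the 39 genes at r = 0.57 and rho = 0.13, beside r = 0.14 and rho = 0.18 across all genes. At an unadjusted p under 0.05 limma gave 2 genes higher and 5 lower in adipocytes, and 10 higher and 3 lower in stromo-vascular cells. Centring each array on its median log2 signal, which moved the median difference of all probe sets in adipocytes to -0.15 against 0.07 log2 as deposited, left 2 genes higher and gave 4 lower in adipocytes (Psme4, Psme3, Psmd12 and Psmc2). Without subcutaneous adipocyte array 1 or intraabdominal adipocyte array 2 the adipocyte count was 1, and without the first subcutaneous stromo-vascular array the stromo-vascular count was 2. It was 3 without either of the other subcutaneous stromo-vascular arrays or the first intraabdominal one.

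Between adipocytes and stromo-vascular cells proteasome genes were called in both directions. In the subcutaneous depot 11 genes were higher in adipocytes and 9 lower, where 55.2% of all genes were called, 24.5% higher and 30.7% lower. In the intraabdominal depot 13 were higher and 6 lower, where 54.0% of all genes were called, 23.8% higher and 30.2% lower. The arrays of the 2 fractions did not overlap for 23 proteasome genes in each depot, a share near the 62.1% and 62.4% of all genes in the subcutaneous and intraabdominal depots. Between depots the groups did not overlap for 8 genes in adipocytes and 18 in stromo-vascular cells, beside 24.5% and 38.8% of all genes. The 20 and 19 calls of 39 between fractions are near the 55.2% and 54.0% of all genes called. With arrays centred on their median the intraabdominal split was 15 higher and 3 lower. The 2 fraction comparisons use different arrays: 9 genes were higher in both, 4 lower in both and 0 called in opposite directions. Among all 6436 genes 1181 were higher in both, 1522 lower in both and 50 called in opposite directions. The differences correlated across the 39 genes at r = 0.81 and rho = 0.76, beside r = 0.87 and rho = 0.82 across all 6436 genes. Genes are not independent replicates. The median difference of the 39 genes was -0.01 log2 in the subcutaneous and 0.15 in the intraabdominal depot, beside -0.04 and -0.11 for all genes.

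**Figure D1:**
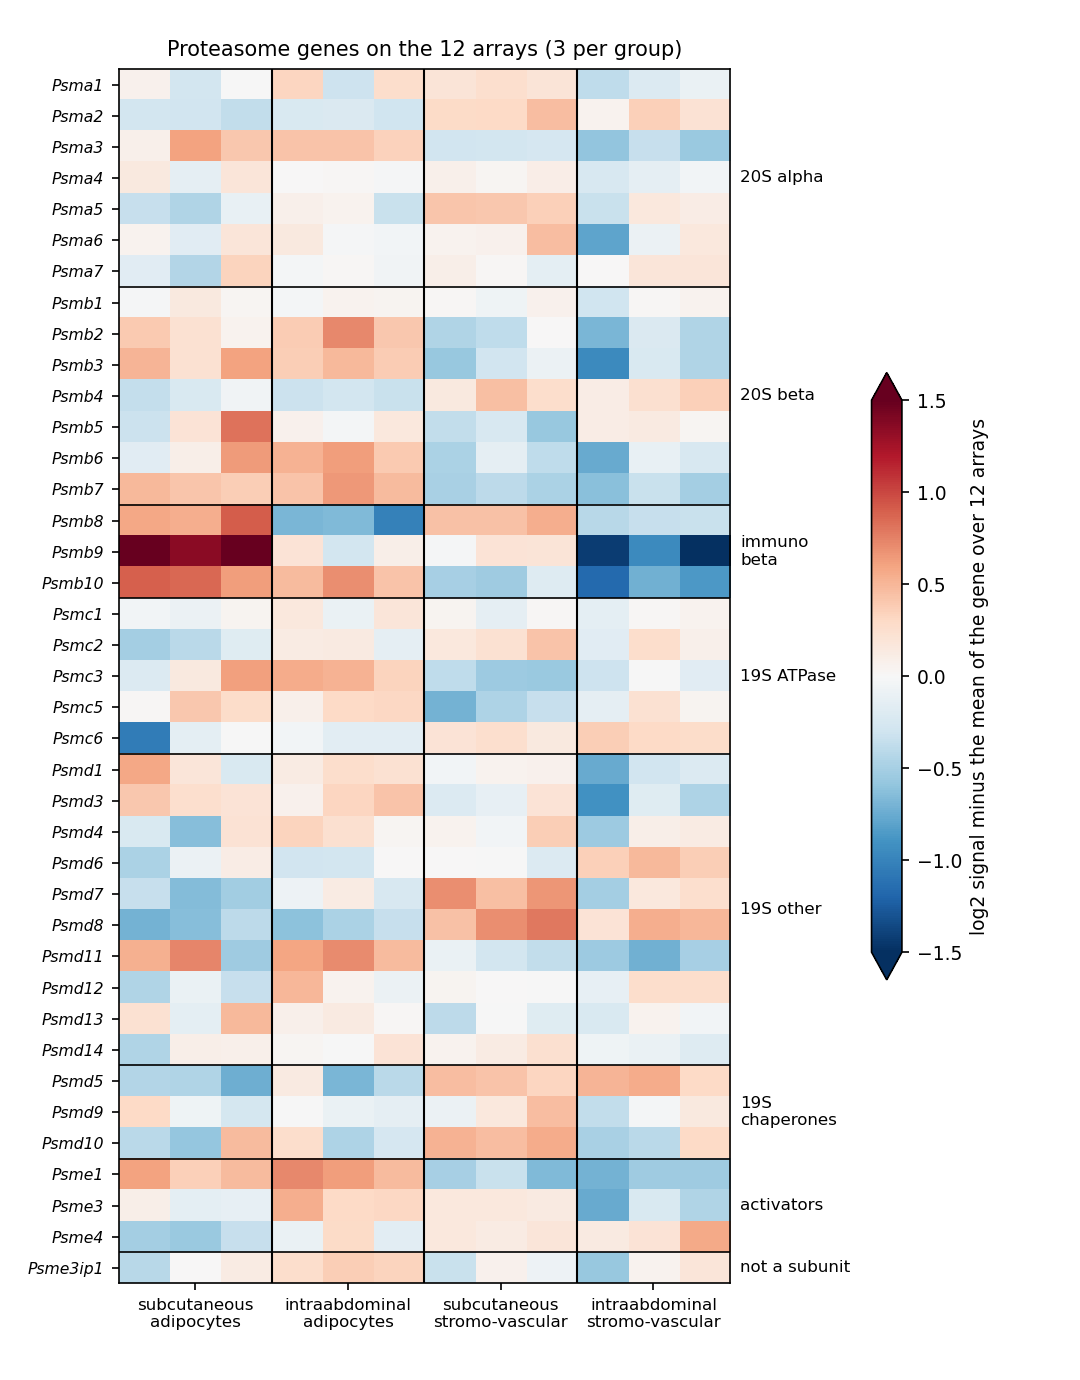
Each row is 1 of the 39 tested proteasome genes, ordered by role, and each column 1 of the 12 arrays (3 per group, groups separated by lines). Colour gives the log2 signal minus the mean of that gene over the 12 arrays, and values beyond the ends of the colour bar take its end colours. The rows of Psmb8 and Psmb9 differ between the depots in both fractions, and the rows of Psmb2, Psmb3 and Psmb7 differ between the fractions.

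The immunoproteasome subunits were the part of the proteasome that varied most over the arrays. Psmb9, Psmb10 and Psmb8 had the 3 widest ranges of the 39 genes, spanning 4.89, 2.06 and 1.92 on the log2 scale. Psmb8 and Psmb9 were higher in subcutaneous than intraabdominal cells in both fractions, and Psmb9 and Psmb10 were higher in adipocytes than stromo-vascular cells in both depots.

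Psmb8, the subunit that takes the place of Psmb5, had signals of 3813, 3733 and 4798 in subcutaneous adipocytes, against 1562, 1594 and 1236 in intraabdominal adipocytes. In stromo-vascular cells it had 3474, 3455 and 3724 in the subcutaneous depot, against 1897, 1988 and 2009 in the intraabdominal depot. Every subcutaneous array thus stood above every intraabdominal array of the same fraction. The difference between the depots was 1.47 ± 0.14 log2 (SE, n = 3 per group, adjusted p = 2.6e-05), or 2.76-fold, in adipocytes, and 0.84 ± 0.14 log2 (adjusted p = 0.00099), or 1.79-fold, in stromo-vascular cells. These 2 depot differences did not pass the test against each other (0.62 ± 0.20 log2, adjusted p = 0.078). Between fractions Psmb8 was lower in intraabdominal adipocytes than in intraabdominal stromo-vascular cells, a difference of -0.42 ± 0.14 log2 (adjusted p = 0.023), a call lost when arrays were centred on their median signal (-0.27, adjusted p = 0.24) or quantile normalized (-0.28, adjusted p = 0.13), and without intraabdominal adipocyte array 3 or intraabdominal stromo-vascular array 2 or 3 (-0.31 to -0.41, adjusted p = 0.099, 0.058 and 0.062). In the subcutaneous depot the difference was 0.20 ± 0.14 log2 (adjusted p = 0.26).

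Psmb9, the subunit that takes the place of Psmb6, gave 3312, 2402 and 3380 in subcutaneous adipocytes, against 1053, 745 and 974 in intraabdominal adipocytes. The stromo-vascular signals were 903, 1054 and 1052 in the subcutaneous depot, against 315, 452 and 75.3 in the intraabdominal depot. The groups did not overlap in either fraction, and the third intraabdominal stromo-vascular array stood far below the other 2. The depot difference was 1.67 ± 0.39 log2 (adjusted p = 0.018), or 3.18-fold, in adipocytes, and 1.93 ± 0.39 log2 (adjusted p = 0.0037), or 3.82-fold, in stromo-vascular cells. Without the low array the stromo-vascular difference was 1.32 log2, and it was called in all 24 alternative settings. In adipocytes the call was lost without subcutaneous array 1 (adjusted p = 0.054), without intraabdominal array 2 (0.076), with array quality weights (0.080) and with the actin covariate (0.11), while the size stayed between 1.45 and 2.27 log2. Adipocytes were higher than stromo-vascular cells by 1.55 ± 0.39 log2 (adjusted p = 0.0039) in the subcutaneous and 1.81 ± 0.39 log2 (adjusted p = 0.0012) in the intraabdominal depot, the second being 1.19 log2 without the low array.

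Psmb10, the subunit that takes the place of Psmb7, was called between the fractions in both depots and between the depots in neither fraction. Its signals were 4114, 4029 and 3402 in subcutaneous adipocytes, against 1546, 1500 and 1909 in subcutaneous stromo-vascular cells. The intraabdominal adipocytes had 3052, 3581 and 2967, against 953, 1318 and 1186 in intraabdominal stromo-vascular cells. All 6 adipocyte arrays stood above all 6 stromo-vascular arrays. The fraction difference was 1.20 ± 0.16 log2 (adjusted p = 1.7e-05), or 2.30-fold, in the subcutaneous and 1.45 ± 0.16 log2 (adjusted p = 2.6e-06), or 2.73-fold, in the intraabdominal depot. The depot difference was 0.26 ± 0.16 log2 in adipocytes (adjusted p = 0.33) and 0.51 ± 0.16 log2 in stromo-vascular cells (adjusted p = 0.052), where the groups did not overlap but the test was not passed. The stromo-vascular depot difference was called in 5 of 24 alternative settings.

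**Figure D2:**
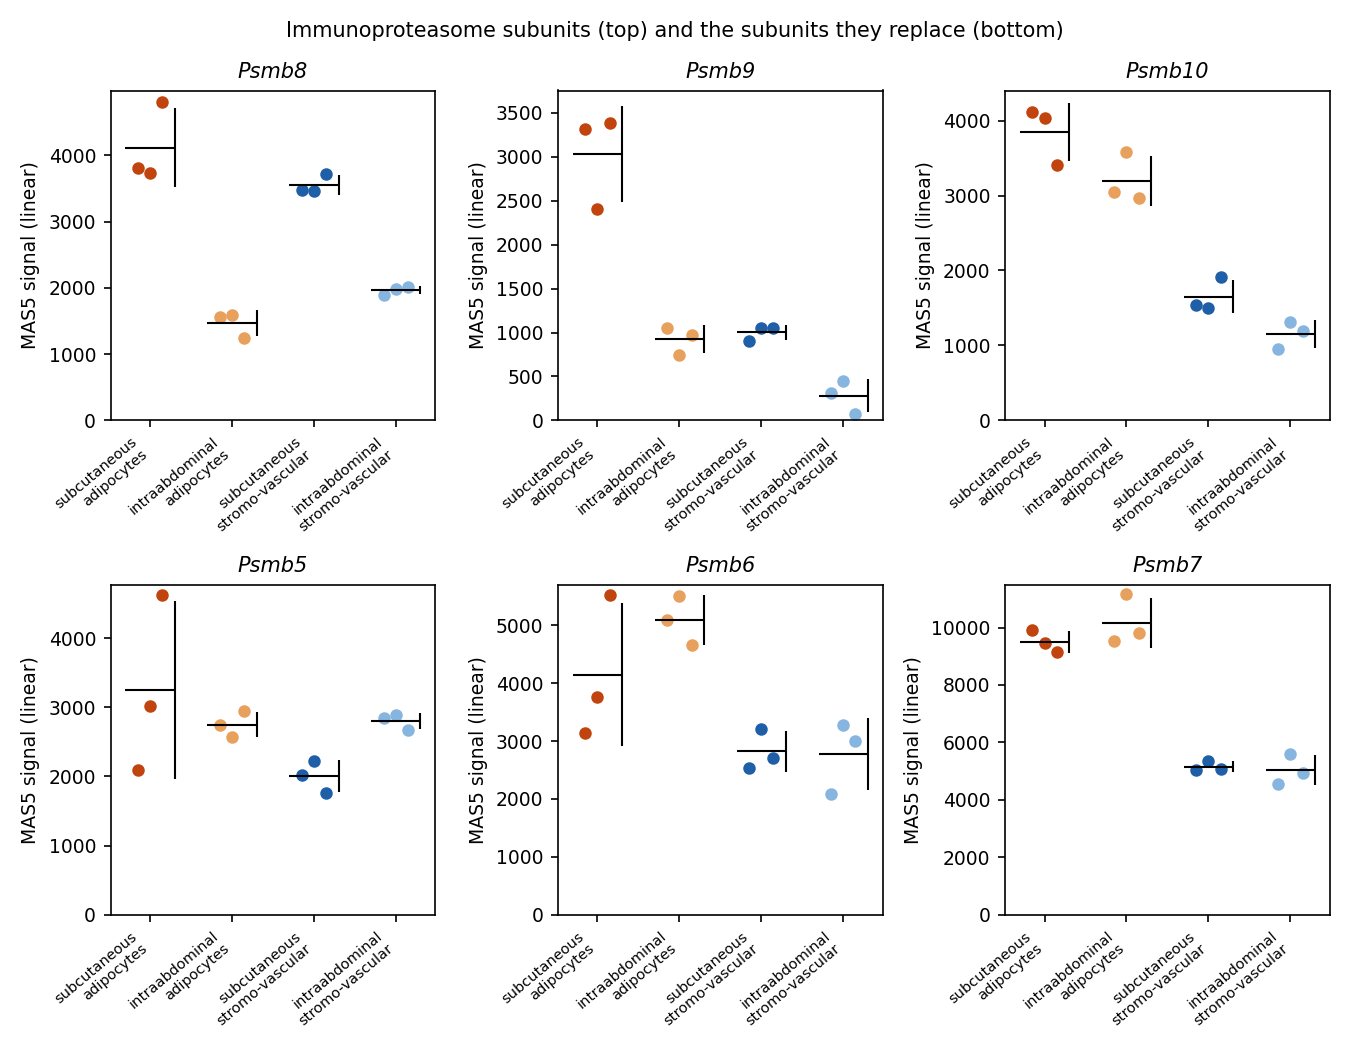
Linear MAS5 signal of the immunoproteasome subunits Psmb8, Psmb9 and Psmb10 (top) and of Psmb5, Psmb6 and Psmb7, whose places they take (bottom). Points are arrays, horizontal lines group means and vertical bars ± 1 SD, with n = 3 per group. Psmb8 and Psmb9 lie higher in the subcutaneous group of each fraction, while Psmb10, Psmb6 and Psmb7 are higher in the adipocyte groups.

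Leukocytes hold the immunoproteasome, so their markers are given beside these genes. In adipocytes the summed signal of 12 macrophage markers was 24314 to 34430 in the subcutaneous depot, against 18691 to 30669 in the intraabdominal depot, with 2 markers called higher and 0 lower. In stromo-vascular cells the same sum was 26766 to 28635 in the subcutaneous depot, against 44666 to 51226 in the intraabdominal depot, with 1 marker called higher and 7 lower. The macrophage markers therefore ran opposite to Psmb8 and Psmb9 between the depots in stromo-vascular cells. Pan-leukocyte markers, 6 genes, summed to 2172 to 4602 in subcutaneous adipocytes against 1346 to 2976 in intraabdominal adipocytes. They summed to 2710 to 3476 in subcutaneous against 6490 to 7933 in intraabdominal stromo-vascular cells. T and B lymphocyte markers, 10 of a list of 12, summed to 6045 to 13996 in subcutaneous and 6223 to 15020 in intraabdominal adipocytes, but only to 1798 to 2181 and 1630 to 2199 in the stromo-vascular cells of the same depots, the same direction as Psmb9 and Psmb10 between the fractions. Only 5 of them passed the signal filter, with 4 higher and 0 lower in subcutaneous adipocytes and 2 higher and 0 lower in intraabdominal adipocytes. The other leukocyte lists did not share this direction. Macrophage markers had 5 higher and 5 lower in subcutaneous adipocytes, and 4 higher and 7 lower in intraabdominal adipocytes. Pan-leukocyte markers, 5 tested, had 0 called in subcutaneous adipocytes, and 0 higher and 3 lower in intraabdominal adipocytes. Endothelial markers, 8 genes, were called higher in adipocytes for 7 genes in each depot. Preadipocyte and fibroblast markers, 10 genes, summed to 44467 to 56436 in subcutaneous against 27147 to 28548 in intraabdominal adipocytes, without overlap and with 2 called higher and 0 lower, the same direction as Psmb8 and Psmb9. In stromo-vascular cells these markers summed to 248723 to 270290 in the subcutaneous against 189732 to 216615 in the intraabdominal depot. Those sums did not overlap and had the same direction as Psmb8 and Psmb9, with 2 markers called higher and 1 lower. Adipocyte markers in stromo-vascular cells summed to 42973 to 49598 in the subcutaneous against 23455 to 28870 in the intraabdominal depot, with 4 called higher and 0 lower. Endothelial markers there had 3 called higher and 0 lower, though their sums overlapped. Smooth muscle and mesothelial markers there went the other way, with 6 of 6 and 4 of 4 tested lower. The part of all these cells in the adipocyte and stromo-vascular results was not tested.

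Within an array, the signal of each immunoproteasome subunit was also set over that of the subunit whose place it takes, which removes anything that scales a whole array. Only differences of this log2 ratio between arrays were read, with labels permuted within the other factor (exact two-sided permutation test, 400 arrangements, smallest possible p = 0.005, adjusted over 6 tests). All 3 ratios were higher in the subcutaneous depot. Psmb8 over Psmb5 was higher by 1.31 log2 (adjusted p = 0.01), with 1.30 in adipocytes and 1.32 in stromo-vascular cells. The corresponding values of Psmb9 over Psmb6 were 1.95 (adjusted p = 0.01), with 2.0 in adipocytes and 1.90 in stromo-vascular cells. For Psmb10 over Psmb7 the difference was 0.41 (adjusted p = 0.01), with 0.36 in adipocytes and 0.47 in stromo-vascular cells. The denominators were not called between depots, but their values enter these ratios: Psmb5 differed between depots by 0.17 ± 0.21 log2 in adipocytes and by -0.48 ± 0.21 in stromo-vascular cells (adjusted p = 0.67 and 0.18), so that 0.48 of the stromo-vascular ratio difference of 1.32 came from Psmb5. Psmb6 differed by -0.33 ± 0.20 and 0.04 ± 0.20 log2 (adjusted p = 0.34 and 0.95).

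Between the fractions the 3 ratios did not move together. Psmb9 over Psmb6 was higher in adipocytes by 0.98 log2 (exact permutation, adjusted p = 0.018), with 1.03 in the subcutaneous and 0.93 in the intraabdominal depot. Without the low intraabdominal stromo-vascular array it was 0.64. Psmb10 over Psmb7 was higher in adipocytes by 0.38 log2 (adjusted p = 0.015), with 0.33 in the subcutaneous and 0.44 in the intraabdominal depot. Psmb8 over Psmb5 was lower in adipocytes, a difference of -0.41 log2 (adjusted p = 0.025), and this difference was 0.01 (adjusted p = 0.98) when all probe sets of each gene were averaged.

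**Figure D3:**
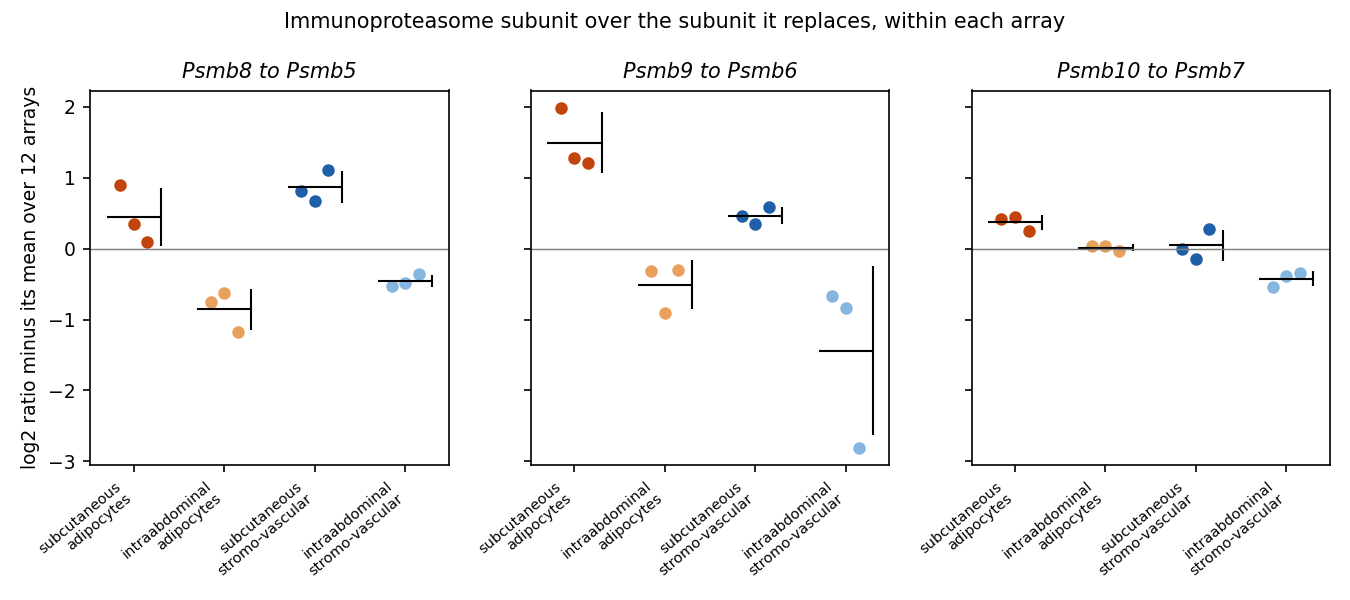
Log2 ratio of the immunoproteasome subunit to the subunit whose place it takes, within each array and minus its mean over the 12 arrays. Points are arrays, horizontal lines group means and vertical bars ± 1 SD, with n = 3 per group. Within each fraction the subcutaneous group mean lies above the intraabdominal one in all 3 panels, and 1 intraabdominal stromo-vascular array is at -2.81 for Psmb9 to Psmb6.

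Of the constitutive cutting subunits Psmb6 and Psmb7 were called between fractions in both depots and Psmb5 in the subcutaneous depot, and none was called between depots. Psmb7, which carries the trypsin-like site, gave 9917, 9462 and 9153 in subcutaneous adipocytes, against 5044, 5365 and 5069 in subcutaneous stromo-vascular cells. In the intraabdominal depot Psmb7 gave 9542, 11159 and 9808 in adipocytes, against 4565, 5604 and 4938 in stromo-vascular cells. Each adipocyte array was above each stromo-vascular array. The fraction difference of Psmb7 was 0.88 ± 0.11 log2 (adjusted p = 1.2e-05) in the subcutaneous and 1.01 ± 0.11 log2 (adjusted p = 2.9e-06) in the intraabdominal depot, and its depot differences were -0.09 ± 0.11 in adipocytes and 0.04 ± 0.11 in stromo-vascular cells (adjusted p = 0.65 and 0.89).

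Psmb6, which carries the caspase-like site, had signals of 3145, 3767 and 5531 in subcutaneous adipocytes, against 2542, 3216 and 2713 in subcutaneous stromo-vascular cells. Its intraabdominal signals were 5098, 5516 and 4656 in adipocytes, against 2086, 3276 and 2995 in stromo-vascular cells. The subcutaneous groups overlapped and the intraabdominal groups did not. The difference was 0.52 ± 0.20 log2 (adjusted p = 0.047) and 0.88 ± 0.20 log2 (adjusted p = 0.0022), and the subcutaneous call held in 10 of 24 alternative settings and was 0.29 (adjusted p = 0.22) without the highest adipocyte array. Psmb5, which carries the chymotrypsin-like site, had 2100, 3023 and 4631 in subcutaneous adipocytes, against 2028, 2224 and 1761 in subcutaneous stromo-vascular cells. In intraabdominal adipocytes Psmb5 had 2744, 2569 and 2942, against 2843, 2894 and 2669 in intraabdominal stromo-vascular cells. These groups overlapped in both depots. The subcutaneous difference of Psmb5 was 0.62 ± 0.21 log2 (adjusted p = 0.025), but 0.33 (adjusted p = 0.12) without the high subcutaneous adipocyte array and not called without subcutaneous stromo-vascular array 1 or 3, and the intraabdominal difference was -0.03 ± 0.21 (adjusted p = 0.93). Between stromo-vascular depots the arrays of Psmb5 did not overlap, and its difference of -0.48 was called in 2 of 24 alternative settings, with only the 6 arrays of the contrast and with array weights (adjusted p = 0.025 and 0.039). A second, dimmer Psmb5 probe set went the other way between fractions (-0.51 and -0.55 log2, adjusted p = 0.16 and 0.14), and the mean of both gave 0.05 (adjusted p = 0.84) in the subcutaneous depot.

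The other subunits of the beta ring are structural. Psmb2 gave 9059, 8047 and 7115 in subcutaneous adipocytes against 5023, 5269 and 6902 in subcutaneous stromo-vascular cells, and 8974, 11316 and 9100 in intraabdominal adipocytes against 4244, 5904 and 5010 in intraabdominal stromo-vascular cells. Psmb3 gave 8614, 7105 and 9202 in subcutaneous adipocytes against 4050, 4928 and 5677 in subcutaneous stromo-vascular cells, and 7777, 8502 and 7843 in intraabdominal adipocytes against 3089, 5151 and 4408 in intraabdominal stromo-vascular cells. Adipocyte and stromo-vascular arrays did not overlap within either depot for these 2 genes. The fraction difference of Psmb2 was 0.50 ± 0.16 log2 (adjusted p = 0.018; 0.41 to 0.45 and not called without subcutaneous adipocyte array 1 or subcutaneous stromo-vascular array 1 or 2) in the subcutaneous and 0.95 ± 0.16 (adjusted p = 0.00016) in the intraabdominal depot. That of Psmb3 was 0.77 ± 0.18 (adjusted p = 0.0022) and 0.96 ± 0.18 (adjusted p = 0.00039). Psmb4 went the opposite way, with 9972, 10886 and 12276 in subcutaneous adipocytes against 14181, 17503 and 15364 in subcutaneous stromo-vascular cells, and 10182, 10579 and 10146 in intraabdominal adipocytes against 13779, 15108 and 16315 in intraabdominal stromo-vascular cells. Its difference was -0.50 ± 0.12 log2 (adjusted p = 0.0024) and -0.54 ± 0.12 (adjusted p = 0.0013).

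In all, 5 of the 7 constitutive beta genes were higher and 1 lower in adipocytes in the subcutaneous depot, and 4 higher and 1 lower in the intraabdominal depot. Over all genes tested 24.5% were higher and 30.7% lower in the subcutaneous depot, and 23.8% higher and 30.2% lower in the intraabdominal depot. Their median difference was 0.52 and 0.88 log2, beside -0.04 and -0.11 over all genes. Psmb1 was called in neither depot on its brighter probe set, but a dimmer one was lower in adipocytes, a difference of -1.36 log2 (adjusted p = 0.00049) and -1.21 (adjusted p = 0.0013). A dimmer Psmb4 probe set also disagreed: it was higher in subcutaneous adipocytes than in subcutaneous stromo-vascular cells by 0.93 log2 (adjusted p = 0.043) and than in intraabdominal adipocytes by 1.26 log2 (adjusted p = 0.046). With all probe sets averaged Psmb4 was called in neither fraction comparison, at 0.23 log2 (adjusted p = 0.37) in the subcutaneous and -0.31 (adjusted p = 0.22) in the intraabdominal depot.

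The alpha ring, which gates the core, had no shared direction between fractions. Psma3 gave 28827, 41687 and 36215 in subcutaneous adipocytes against 22371, 22552 and 22980 in subcutaneous stromo-vascular cells, and 36738, 36811 and 34846 in intraabdominal adipocytes against 18197, 21581 and 18647 in intraabdominal stromo-vascular cells. Psma2 gave 8998, 8928 and 8394 in subcutaneous adipocytes against 13310, 13405 and 15007 in subcutaneous stromo-vascular cells, and 9320, 9387 and 8871 in intraabdominal adipocytes against 11275, 13931 and 12656 in intraabdominal stromo-vascular cells. Neither gene overlapped between the fractions, and they went in opposite directions. Psma3 was higher in adipocytes by 0.64 ± 0.13 log2 (adjusted p = 0.00079) and 0.89 ± 0.13 (adjusted p = 3.8e-05), and Psma2 lower, a difference of -0.66 ± 0.11 (adjusted p = 0.00013) and -0.45 ± 0.11 (adjusted p = 0.0029), the second not called with arrays centred on their median (-0.30, adjusted p = 0.077). Psma5 was lower in subcutaneous adipocytes (4160, 3851 and 4919) than in subcutaneous stromo-vascular cells (7069, 7035 and 6778), a difference of -0.69 ± 0.16 log2 (adjusted p = 0.0018). The other alpha genes, Psma1, Psma4, Psma6 and Psma7, were called in no comparison. On the brightest probe set of each gene, none of the alpha or constitutive beta ring was called between depots in either fraction by limma: at an unadjusted p under 0.05 there were 0 of the 14 in adipocytes, and 2 higher and 1 lower in stromo-vascular cells.

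The ATPases of the cap unfold the substrate. Of the 5 tested, Psmc3 and Psmc5 were higher and Psmc2 and Psmc6 lower in subcutaneous adipocytes than in subcutaneous stromo-vascular cells, and Psmc3 alone was called in the intraabdominal depot, where it was higher. Psmc3 gave 2300, 2958 and 4080 in subcutaneous adipocytes against 2038, 1804 and 1802 in subcutaneous stromo-vascular cells, and 3930, 3839 and 3367 in intraabdominal adipocytes against 2140, 2640 and 2353 in intraabdominal stromo-vascular cells. Its fraction difference was 0.68 ± 0.18 log2 (adjusted p = 0.0055) in the subcutaneous and 0.64 ± 0.18 (adjusted p = 0.0084) in the intraabdominal depot. The groups did not overlap in either.

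Psmc5 gave 1885, 2477 and 2266 in subcutaneous adipocytes against 1128, 1349 and 1462 in subcutaneous stromo-vascular cells, a difference of 0.73 ± 0.16 log2 (adjusted p = 0.0016). In intraabdominal stromo-vascular cells Psmc5 gave 1690, 2201 and 1916, so that it was lower in the subcutaneous than the intraabdominal depot of this fraction, a difference of -0.55 ± 0.16 log2 (adjusted p = 0.040). That depot call held in 16 of 24 alternative settings and was lost without any 1 of the 3 subcutaneous or of intraabdominal stromo-vascular arrays 2 and 3 (-0.44 to -0.63), and the difference was 0.01 when a second, dim probe set was averaged in. Psmc2 gave 3254, 3511 and 4100 in subcutaneous adipocytes against 5175, 5460 and 6249 in subcutaneous stromo-vascular cells, a difference of -0.63 ± 0.14 log2 (adjusted p = 0.0019). Psmc6 gave 6041, 11379 and 12481 in subcutaneous adipocytes, the first array standing well below the other 2, against 14535, 15011 and 13854 in subcutaneous stromo-vascular cells. Its difference of -0.60 ± 0.20 log2 (adjusted p = 0.019) was -0.28 without that first array, where it was still called, and -0.58 (adjusted p = 0.057) without the second stromo-vascular array. Psmc1 was called in no comparison.

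Among the other cap subunits Psmd8, part of the lid, was lower in adipocytes in both depots. Its signals were 2827, 2970 and 3509 in subcutaneous adipocytes against 6306, 7517 and 8032 in subcutaneous stromo-vascular cells, and 3016, 3308 and 3644 in intraabdominal adipocytes against 5335, 6768 and 6559 in intraabdominal stromo-vascular cells. All adipocyte arrays were below all stromo-vascular arrays. The difference was -1.22 ± 0.14 log2 (adjusted p = 4.6e-06), or 2.33-fold, in the subcutaneous and -0.89 ± 0.14 log2 (adjusted p = 9.5e-05), or 1.86-fold, in the intraabdominal depot.

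Psmd7, a lid subunit that pairs with the deubiquitinase Psmd14, was the cap gene whose depot difference changed with the fraction. It gave 4060, 3276 and 3566 in subcutaneous adipocytes, against 4905, 5596 and 4360 in intraabdominal adipocytes. In stromo-vascular cells Psmd7 gave 8377, 7050 and 8175 in the subcutaneous depot, against 3600, 5756 and 6163 in the intraabdominal depot. The subcutaneous arrays were thus the lower ones in adipocytes and the higher ones in stromo-vascular cells, with no overlap in either. The depot difference was 0.64 ± 0.18 log2 (adjusted p = 0.032) in stromo-vascular cells and -0.44 ± 0.18 log2 (adjusted p = 0.15) in adipocytes, and the interaction was -1.08 ± 0.26 log2 (adjusted p = 0.017). Of all genes 9.11% were called on the interaction, 4.20% positive and 4.91% negative, against 0 positive and 2 negative among the 39, Psmd7 and Psme3 (3 positive and 5 negative at an unadjusted p under 0.05 in limma). Between fractions Psmd7 was lower in subcutaneous adipocytes, a difference of -1.11 ± 0.18 log2 (adjusted p = 0.00012). Without the first intraabdominal stromo-vascular array the stromo-vascular depot difference of Psmd7 was 0.40 (adjusted p = 0.12), and without subcutaneous stromo-vascular array 1 or 3 it was 0.59 or 0.61 (adjusted p = 0.11 in both). The call was also lost with the replicate block (adjusted p = 0.054), with arrays centred on their median (0.58, adjusted p = 0.087) and without the trend (adjusted p = 0.078).

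Psmd1, Psmd3 and Psmd11 were higher and Psmd6 lower in adipocytes of the intraabdominal depot. Psmd11, a lid subunit, gave 15571, 16873 and 14354 in intraabdominal adipocytes against 7070, 6264 and 7276 in intraabdominal stromo-vascular cells, a difference of 1.18 ± 0.24 log2 (adjusted p = 0.00072). Its 3 subcutaneous adipocyte arrays spread widely, at 14957, 17179 and 7117, against 9663, 8519 and 7955 in subcutaneous stromo-vascular cells. A dimmer Psmd11 probe set gave -0.27 log2 (adjusted p = 0.16) in the intraabdominal depot and was lower in subcutaneous adipocytes, a difference of -0.76 log2 (adjusted p = 0.00075), so that the direction of Psmd11 depends on the probe set, and their mean gave 0.22 log2 (adjusted p = 0.29) in the intraabdominal depot. Psmd3, also of the lid, gave 4914, 5885 and 6380 in intraabdominal adipocytes against 2498, 4148 and 3421 in intraabdominal stromo-vascular cells (0.79 ± 0.18 log2, adjusted p = 0.0017). Psmd1, a scaffold of the base, gave 10420, 11473 and 11162 against 5639, 7832 and 8287 in the same groups (0.62 ± 0.18 log2, adjusted p = 0.011, or 0.45 and 0.058 without the first stromo-vascular array). Psmd6 gave 3436, 3462 and 4198 in intraabdominal adipocytes against 5395, 5886 and 5413 in intraabdominal stromo-vascular cells (-0.59 ± 0.15 log2, adjusted p = 0.0043, or -0.43 and 0.052 with arrays centred on their median). In none of these 3 genes did the 2 groups overlap. Psmd4, Psmd12, Psmd13 and Psmd14 were called in no comparison.

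**Figure D4:**
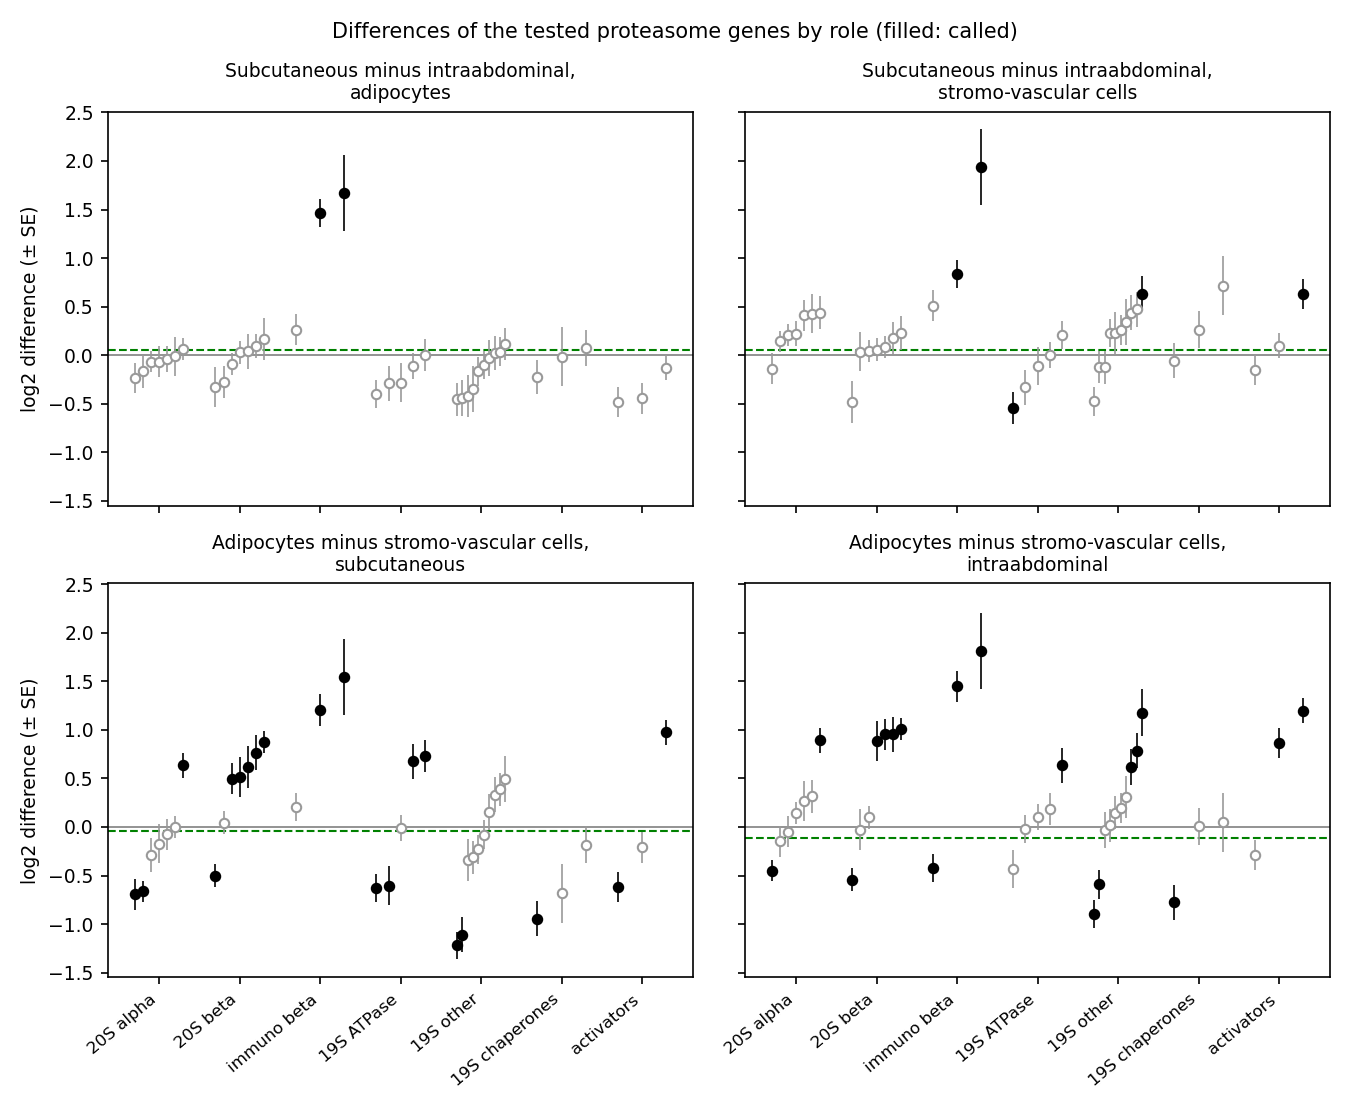
Log2 differences of the tested proteasome genes by role, 1 panel per comparison, with bars of ± 1 SE from the fit to all 12 arrays (n = 3 per group). Filled points passed an adjusted p under 0.05, open points did not, and the dashed green line is the median of all 6436 genes tested. In the upper panels Psmb8 and Psmb9 are the highest points between depots, and in the lower panels Psmb2, Psmb3, Psmb7 and the activator Psme1 lie above the line between fractions and Psmb4 below it.

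By median difference the core and the cap were close to each other in every comparison. The median difference of the 14 core and the 15 tested cap genes was -0.05 and -0.17 log2 between depots in adipocytes, and 0.16 and 0.21 in stromo-vascular cells. Between fractions it was 0.02 and -0.08 in the subcutaneous and 0.21 and 0.15 in the intraabdominal depot. The core value between fractions pools rings that differed. The alpha ring had medians of -0.17 and 0.14 in the subcutaneous and intraabdominal depots, and the constitutive beta ring 0.52 and 0.88. Against stromo-vascular cells, subcutaneous adipocytes had 6 core genes higher and 3 lower, and intraabdominal adipocytes had 5 higher and 2 lower. For the cap the counts in the same order were 2 higher and 4 lower, and 4 higher and 2 lower. Of all genes 24.5% were higher and 30.7% lower in the subcutaneous, and 23.8% higher and 30.2% lower in the intraabdominal depot. Set beside the core and the cap, the 3 immunoproteasome genes had medians of 1.47 and 0.84 log2 between depots in adipocytes and stromo-vascular cells. Their ranges there were 0.26 to 1.67 and 0.51 to 1.93. Between fractions the medians were 1.20 and 1.45 in the subcutaneous and intraabdominal depots, with ranges of 0.20 to 1.55 and -0.42 to 1.81. The lowest values between fractions were those of Psmb8, not called in the subcutaneous and called lower in the intraabdominal depot.

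The activators open the core in place of the cap. Psme1, a subunit of the interferon-inducible activator PA28, was higher in adipocytes in both depots on its brighter probe set. It gave 6797, 5750 and 6243 in subcutaneous adipocytes against 3161, 3548 and 2820 in subcutaneous stromo-vascular cells, and 7383, 6918 and 6255 in intraabdominal adipocytes against 2718, 3084 and 3079 in intraabdominal stromo-vascular cells. The fractions did not overlap. The difference was 0.97 ± 0.13 log2 (adjusted p = 1.4e-05), or 1.96-fold, in the subcutaneous and 1.20 ± 0.13 log2 (adjusted p = 1.7e-06), or 2.30-fold, in the intraabdominal depot. A second Psme1 probe set was too dim to be tested, and averaging it in ended both calls, with 0.26 log2 (adjusted p = 0.26) in the subcutaneous and -0.18 (adjusted p = 0.45) in the intraabdominal depot. Between depots Psme1 differed by -0.13 ± 0.13 log2 in adipocytes (adjusted p = 0.56) and 0.10 ± 0.13 in stromo-vascular cells (adjusted p = 0.72).

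Psme3, the nuclear activator PA28 gamma, changed its depot difference with the fraction as Psmd7 did. It gave 2016, 1709 and 1732 in subcutaneous adipocytes, against 2778, 2340 and 2355 in intraabdominal adipocytes. In stromo-vascular cells it gave 2120, 2115 and 2081 in the subcutaneous depot, against 1101, 1609 and 1374 in the intraabdominal depot. The depot difference was -0.44 ± 0.16 log2 (adjusted p = 0.097) in adipocytes and 0.63 ± 0.16 log2 (adjusted p = 0.015) in stromo-vascular cells, and the interaction was -1.08 ± 0.22 log2 (adjusted p = 0.0069). The stromo-vascular call was lost without subcutaneous array 1 or 2 (adjusted p = 0.052 and 0.055) or intraabdominal array 1 (0.49 log2, adjusted p = 0.066). Intraabdominal adipocytes were above intraabdominal stromo-vascular cells by 0.86 ± 0.16 log2 (adjusted p = 0.00031). Psme4, the activator PA200, gave 1911, 1849 and 2142 in subcutaneous adipocytes against 3050, 2987 and 3090 in subcutaneous stromo-vascular cells, and was lower there, a difference of -0.62 ± 0.16 log2 (adjusted p = 0.0036). In the intraabdominal depot Psme4 gave 2546, 3352 and 2441 in adipocytes against 3003, 3153 and 4060 in stromo-vascular cells, with overlap (-0.29 ± 0.16 log2, adjusted p = 0.14).

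Psmd5, a chaperone of cap assembly, was lower in adipocytes in both depots. It gave 2913, 2899 and 2363 in subcutaneous adipocytes against 5467, 5330 and 4982 in subcutaneous stromo-vascular cells, and 4356, 2443 and 2994 in intraabdominal adipocytes against 5661, 5864 and 4903 in intraabdominal stromo-vascular cells. The fractions did not overlap, and the difference was -0.94 ± 0.18 log2 (adjusted p = 0.00042) and -0.78 ± 0.18 (adjusted p = 0.0020). The other cap chaperones, Psmd9 and Psmd10, and the Psme3-binding Psme3ip1 were called in no comparison. Of the 39 genes, 26 were called in at least 1 comparison and 13 in none, beside 4391 of all 6436 genes called in at least 1. The 3 untested genes had signals of 18.6 to 306 for Psmc4, 57.2 to 239 for Psmd2 and 14.9 to 61.3 for Psmc3ip over the 12 arrays.

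Genes around the proteasome came from lists chosen with earlier results of these data known. Against the stromo-vascular cells of the same depot, 12 assembly factors, inhibitors and bound enzymes were tested: subcutaneous adipocytes had 4 of them higher and 4 lower, and intraabdominal adipocytes 5 higher and 4 lower. The shares of all genes were 24.5% higher and 30.7% lower, and 23.8% higher and 30.2% lower, in the same order. Nfe2l1 averaged 9000 ± 1104 in subcutaneous adipocytes against 6233 ± 322 in subcutaneous stromo-vascular cells (SD, n = 3 each; 0.52 ± 0.12 log2, adjusted p = 0.0025), and 9969 ± 1112 in intraabdominal adipocytes against 5045 ± 219 in intraabdominal stromo-vascular cells (0.97 ± 0.12 log2, adjusted p = 1.0e-05). Nfe2l2, the oxidative stress factor that also drives proteasome genes, went the other way, a difference of -1.07 and -0.86 log2 (adjusted p = 2.7e-06 and 2.4e-05). Txnl1, a thioredoxin-like protein bound to the cap, was higher by 1.64 and 1.35 log2 (adjusted p = 1.2e-06 and 9.3e-06). Usp14, a deubiquitinase of the cap, was lower, a difference of -1.05 log2 in each depot (adjusted p = 0.00021 in both). Between depots none of the 12 was called in adipocytes by limma (2 higher and 1 lower at an unadjusted p under 0.05), and Nfe2l2 alone was called in stromo-vascular cells, where it was higher in the subcutaneous depot (0.41 ± 0.12 log2, adjusted p = 0.033).

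Genes of MHC class I processing and the interferon response, which share inducers with the immunoproteasome, were higher in the subcutaneous depot where they were called between depots. In adipocytes 9 of the 19 tested were higher in the subcutaneous than the intraabdominal depot and 0 lower, with a median of 0.66 log2 beside 0.05 over all genes (12 higher and 0 lower at an unadjusted p under 0.05 in limma). The shares of all genes called between depots were 3.67% higher and 4.63% lower in adipocytes, and 6.91% higher and 6.96% lower in stromo-vascular cells. Tap1, which neighbours Psmb9, averaged 3179 ± 515 in subcutaneous against 1589 ± 129 in intraabdominal adipocytes (SD, n = 3 each; 0.97 ± 0.17 log2, adjusted p = 0.0031). Irf1, an interferon-induced transcription factor, was higher there by 0.91 ± 0.17 log2 (adjusted p = 0.0039), and H2-D1, a class I heavy chain, by 0.58 ± 0.11 log2 (adjusted p = 0.0058). In stromo-vascular cells 5 were higher and 0 lower (8 and 0 at an unadjusted p under 0.05), with a median of 0.39 log2: Tapbp, H2-D1, H2-K1 and B2m led by 1.36, 1.33, 1.21 and 0.66 log2 (adjusted p = 3.0e-06, 1.9e-06, 2.7e-06 and 0.00034), and Irf1 was the other. Tap1 was not called in that fraction (0.46 log2, adjusted p = 0.11). Between fractions 11 were higher and 3 lower in subcutaneous and 8 higher and 5 lower in intraabdominal adipocytes. The shares of all genes were 24.5% higher and 30.7% lower, and 23.8% higher and 30.2% lower, in the same order. The list ran from -3.69 to 3.86 log2 (median 0.65) in the subcutaneous and from -3.23 to 3.52 (median 0.10) in the intraabdominal depot. Irf1 was at the upper end, higher by 3.86 and 3.52 log2 (limma, adjusted p = 1.2e-10 and 2.6e-10).

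Ubiquitin genes, activating enzymes and shuttle factors gave few calls between depots. Of 16 tested, 0 were called in adipocytes by limma (1 higher and 7 lower at an unadjusted p under 0.05), and in stromo-vascular cells Sqstm1, a ubiquitin-binding autophagy receptor, was higher (0.54 log2, adjusted p = 0.045) and Ube2h, a conjugating enzyme, lower (-0.70 log2, adjusted p = 0.017) in the subcutaneous depot. Between fractions subcutaneous adipocytes had 1 of them higher and 6 lower, and intraabdominal adipocytes 3 higher and 3 lower. Ubqln2, a shuttle factor, was lower in adipocytes, a difference of -1.82 and -1.01 log2 (adjusted p = 3.8e-06 and 0.00088), and Ufd1, a cofactor of the unfoldase Vcp, was higher by 0.81 and 0.95 log2 (adjusted p = 0.0028 and 0.00079).

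Several probe sets limit what a signal can be tied to. The probe sets of Psma3, Psmb4, Psmb7, Psmc3 and Psmd12 carry the _f_at ending, which on this array type marks probes shared within a gene family or with near-identical sequences, so their signals may hold other transcripts. The probe set of Psmb5 ends in _s_at and that of Psmd9 in _r_at, not in the plain _at. What else these may detect was not tested.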

How the data were processed

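Per the labels' protocols, fat of 10 mice was pooled by depot and taken through 45 min of collagenase digestion, and the stromo-vascular cells were plated for 16 h. The deposited values are 1 intensity per probe set and array on a linear scale, computed by the authors with MAS5, per the submitters' processing notes, which name no version. The 2% trimmed means of the 12 arrays differed by a ratio of 1.00, so no further scaling was applied. Depth is not defined for arrays: their number, 12, limits the precision.

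The 66 control probe sets were left out of 12488. Of the others 10833 had 1 gene symbol, 396 several and 1193 none in the platform annotation, which can be old. Probe sets with several symbols name no gene, and the 42 proteasome genes all matched RefSeq by Entrez number.

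The test used log2 of the intensity after adding 40.1, the 10th percentile over all values, so a fold understates the change of dim genes. The lowest 30% of probe sets by mean log2 signal were left out, which left 8695. With limma 3.58.1 in R 4.3.3 the 12 arrays were fitted together, 1 mean per group (lmFit, contrasts, eBayes with trend). Adjusted p-values are Benjamini-Hochberg over all 8695 probe sets, and a gene was called under 0.05. Shares of all genes called are over 6436 genes, 1 probe set each. The interaction subtracts the depot difference of stromo-vascular cells from that of adipocytes. Ratios were compared by exact permutation. The steps were tested on simulated data.

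Values per array are given for genes called without overlap between groups (the 8 largest per comparison and direction), for the immunoproteasome subunits and their counterparts, and for the activators. Genes outside the family are named from lists, up to 4 per list and comparison by smallest p; Tap1 in stromo-vascular cells, Irf1 there and Nfe2l1 in subcutaneous fat were added after their values were seen. The members and lists were chosen with earlier results of these data known. Alternatives were other pseudocounts, filters, scalings and spread estimates, a mean over probe sets, the actin ratio, a replicate block and leaving out each array.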

Additional observations from a re-analysis of the deposited data

Results flagged for a closer look

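The depot difference of Psmd7, a lid subunit of the cap, depended on the cell fraction by the test of the difference itself: the subcutaneous minus intraabdominal difference was lower in adipocytes than in stromo-vascular cells, a difference of -1.08 ± 0.26 log2 (adjusted p = 0.017 in limma, n = 3 arrays per group). The adjusted p ranged from 0.011 to 0.099 over 23 alternative settings and was 0.051 without intraabdominal adipocyte array 2. Psme3, the nuclear activator, gave -1.08 ± 0.22 log2 on the same test (adjusted p = 0.0069), with a range of 0.0053 to 0.084. For both genes the 3 subcutaneous arrays were below the intraabdominal arrays in adipocytes and above them in stromo-vascular cells. In stromo-vascular cells 7 of 12 macrophage, 6 of 6 smooth muscle and 4 of 4 mesothelial markers were lower in the subcutaneous depot, and their part in these 2 results was not tested.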

How the results depend on the processing

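Over 24 alternatives (23 for the interaction) most calls of single genes kept their direction and their side of the threshold. The counts of proteasome genes called between fractions moved most with the actin 3′ to 5′ ratio as a covariate, where counts were 1 in subcutaneous and 8 in intraabdominal fractions, 1 between adipocyte depots and 1 in the interaction. In that fit differences between fractions turned in Psmc6 (0.46), Psmb2 (-0.11), Psma5 (0.13) and Psmc2 (0.022) in the subcutaneous depot, and in Psmb8 (0.023), Psmd11 (-0.069) and Psmd1 (-0.071) in the intraabdominal depot. The adipocyte depot count was 6 with median centring and 1 with array weights. The stromo-vascular depot count was 9 with only its 6 arrays, 3 without the trend and 12 with array weights, and the interaction count was 1 without the trend. Averaging all probe sets of a gene turned Psmc5 between stromo-vascular depots (0.014), Psmb4 in subcutaneous fractions (0.23), Psmb1 (-0.54) and Psme1 (-0.18) in intraabdominal fractions, and the fraction difference of Psmb8 over Psmb5 (0.0070). The cause was not tested. Leaving out 1 array gave counts of 1 to 3 between adipocyte depots, 2 to 7 between stromo-vascular depots, 17 to 21 and 18 to 21 between subcutaneous and intraabdominal fractions and 2 to 4 in the interaction, the 4 being without subcutaneous adipocyte array 1. It gave -0.52 to -0.32 for the fraction difference of Psmb8 over Psmb5, not called in 7 of 12 cases. The ratios were run in 18 of the alternatives, and the other 5 ratio differences stayed called in all 18. The actin covariate was not applied to the ratios, so their dependence on RNA integrity was not tested. Median centring is among the 18 but cannot change a ratio within an array. Deviations of arrays with the same replicate number correlated at -0.09 to 0.11, with 1 of 18 pairs above 0.1. Arrays with different numbers gave -0.17 to 0.12, with 1 of 36 pairs above 0.1. No pairing was thus seen, but the check cannot tell whether same-numbered samples shared a pool, since a shared pool need not leave a correlation. With the replicate block the counts were 2, 4, 20, 20 and 2 for adipocyte depots, stromo-vascular depots, subcutaneous fractions, intraabdominal fractions and interaction. Dim signal kept Psmc4, Psmd2 and Psmc3ip out of every test.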
